A study of Daphnia pulicaria with 8 samples.

Results

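Long Lake was one of the 4 lakes from which whole adult Daphnia pulicaria, a small planktonic crustacean, were collected, and it contributed 2 of the 8 RNA-seq libraries, Long Pale and Long Red. Its libraries were set against the 6 libraries of the other 3 lakes, a Pale and a Red one each from Black Lake (Black Pale, Black Red), Doe Lake (Doe Pale, Doe Red) and Round Lake (Round Pale, Round Red). Per the labels' protocols, 30 animals of each lake went into preservative before RNA was extracted; whether this number was for each colour is not stated. The libraries were depleted of ribosomal RNA and kept the strand of the transcript. No further genotype, clone, age, treatment or oxygen level was given in the labels. A gene is described as apart in Long Lake where both Long libraries lay above, or both lay below, all 6 others.

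Daphnia live suspended in lake water, filter algae and other particles, and lay mostly unfertilised eggs that give daughters. Their haemoglobin is dissolved in the body fluid and is made in larger amounts when oxygen is scarce, which turns pale animals red. Their cuticle is shed and rebuilt at each moult, so transcripts of cuticle genes depend strongly on where an animal stands in that cycle. Animals of different lakes can differ in ancestry and in conditions of life, and these cannot be told apart in this design.

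The values were FPKM, which relate the fragments of a gene to its length and to the total of its library. The files give no read counts, so the depth is unknown. Steps between low values gave depths relative to Black Pale of 1.13 in Long Pale and 1.12 in Long Red, against 0.908 to 1.85 in the 6 others, of which only Black Red exceeded 1.09. Genes above 0 numbered 20323 in Long Pale and 19528 in Long Red, against 19274 to 21606 in the others. In a whole animal, fewer cells of a type and less RNA per cell cannot be told apart. Since each lake and colour had 1 library, the spread behind the tests below is mainly that between lakes within a colour. In the test of Long against the other lakes it also includes how far Long Pale and Long Red disagree beyond the effect of colour. Lake mates entered the fit as separate samples.

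The first question was whether the Long libraries had a profile in common. Long Pale was less like Long Red than like any other library. Over the 12865 genes that averaged 1 FPKM or more, Spearman's correlation of Long Pale with Long Red was 0.804, while the Pale and Red libraries of a lake correlated at 0.888 in Black, 0.845 in Doe and 0.886 in Round. Long Pale was closest to Round Pale, at 0.874, and Long Red to Round Red, at 0.867. Long Red was farthest from Doe Red, at 0.77. On the first principal component of all genes, which held 26% of the variance, Long Red stood at 62.3 and Long Pale at -6.39, with the 6 others between -34 and 16.2.

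Gene by gene, the difference of Long Pale from the mean of the 3 other Pale libraries was compared with the difference of Long Red from the mean of the 3 other Red libraries. Across the 12865 genes the correlation of these differences was -0.0212, and they had the same sign in 50.2% of genes. Genes are not independent replicates, and this is a description of these libraries. Genes in which Long Pale was the highest of the 4 Pale libraries numbered 2640, and those in which it was the lowest 3412; for Long Red among the 4 Red libraries they numbered 2648 and 3747.

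**Figure D1:**
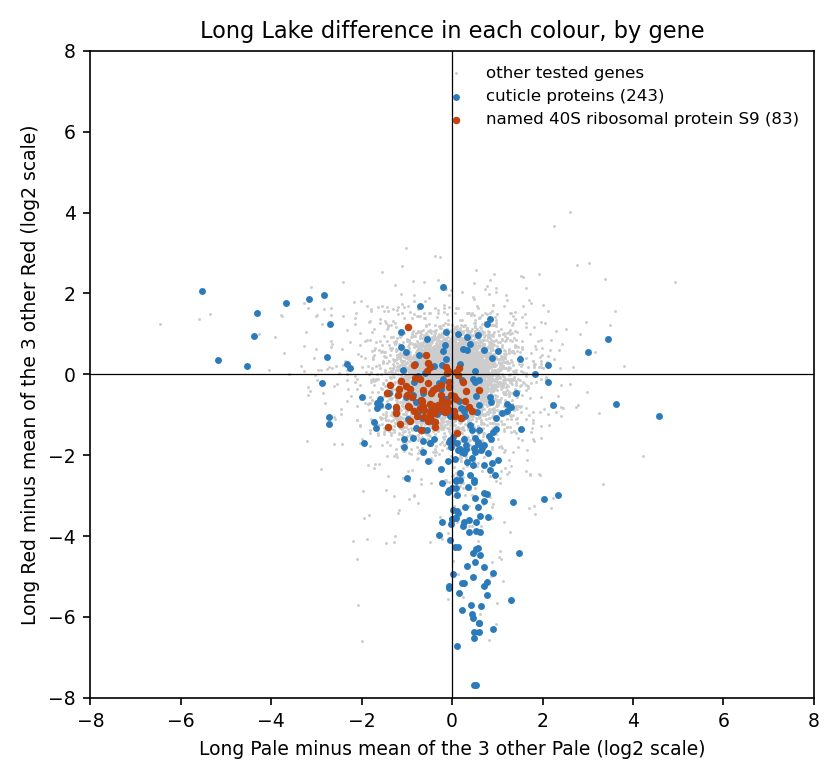
Each point is a tested gene, with the difference of Long Pale from the 3 other Pale libraries on the horizontal axis and of Long Red from the 3 other Red libraries on the vertical axis, both on the log2(FPKM + 1) scale. The cloud has no slope, cuticle genes run down the vertical axis through Long Red, and genes named 40S ribosomal protein S9 lie mostly at the lower left.

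The second question was which genes differed between Long Lake and the other lakes whatever the colour. With limma on log2(FPKM + 1), Long as a term, colour as a second term and Benjamini-Hochberg adjustment over all genes, 0 of 12865 genes passed an adjusted p of 0.05 in either direction (0% called). The smallest adjusted p was 0.779. At an unadjusted p under 0.05 there were 212 genes higher (1.65%) and 450 lower (3.5%) in Long. A test of whether Long Red minus Long Pale differed from the same difference in the other lakes also called 0 genes (0%), with 587 genes (4.56%) at an unadjusted p under 0.05. The fit without a filter on low values called 8 genes, all higher in Long and all listed at 0 in the 6 other libraries, while every other alternative fit called 0. With the 6 others all at 0, the p-values of those 8 genes do not measure a spread between lakes. Genes and families are therefore described by their values. The families were not tested, and among the 123 genes chosen by the naming rule the adjusted p lay between 0.779 and 0.993.

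Both Long libraries lay above all 6 others in 287 genes (2.23%) and below them in 505 (3.93%). Long had the fewest such genes of the 4 lakes. The same count was 537 above and 449 below in Black Lake, 324 above and 944 below in Doe Lake, and 930 above and 193 below in Round Lake. Most of the Long genes were apart by little: the median distance between the nearest Long library and the nearest other library was 0.0962 above and 0.11 below on the log2 scale. That distance reached 0.5 in 15 genes above and 26 below. At the edge, Daplx7pEVm014584, a G-protein beta subunit, was just inside by 0.000276 and Daplx7pEVm009462, the mitochondrial protease OMA1, was outside by -0.0028. Below, Daplx7pEVm002049, a Rap1 GTPase-activating protein, was inside by 0.00166 and the uncharacterized Daplx7pEVm060739 outside by -0.000863.

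The balance between the directions depended on the scaling. With the deposited FPKM, 36.2% of the genes apart in Long lay above; with size factors the counts were 454 above and 423 below (51.8% above), with quantile normalization 538 and 298 (64.4%), and with the most abundant gene taken out of each library's sum 411 and 433 (48.7%). That gene, which is uncharacterized, held 45.5% of the FPKM of Long Pale and 47% of Long Red, against 41% to 48.1% in the others. Of the 287 and 505 genes, 250 and 371 stayed apart under size factors, and 242 and 265 under quantile normalization.

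**Figure D2:**
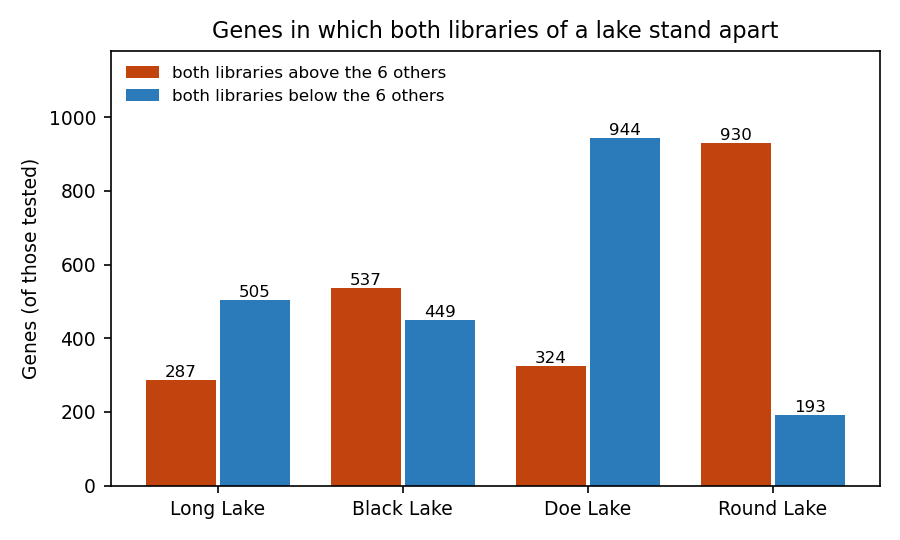
Bars give, for each lake, the number of tested genes in which both of its libraries lay above (red) or below (blue) the 6 libraries of the other lakes. Long Lake, with 287 and 505, has the lowest total, and Doe and Round Lake lean in opposite directions.

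The study's title concerns hypoxia. The summed FPKM of the globin, hypoxia signalling and haem lists in the Long libraries overlapped that of the other lakes. The 27 tested globin genes held those named di-domain hemoglobin, the oxygen carrier of the blood, and others named Globin or Cytoglobin. They included 0 that were apart in Long, in either direction. Over all genes 2.23% were apart above and 3.93% below, shares at which a list this small holds few such genes or none. Their summed FPKM was 2160 in Long Pale and 4250 in Long Red. Those sums were 929 to 3440 in the other Pale libraries and 3860 to 5320 in the other Red ones, so each Long library lay within its colour. Among 8 genes of hypoxia signalling, 1 was apart above (12.5%, beside 2.23% of all genes) and 0 below (all genes 3.93%). It was a gene for a prolyl hydroxylase of hypoxia-inducible factor (Daplx7pEVm009917). These enzymes mark that factor for destruction when oxygen is present. This gene had 10.9 FPKM in Long Pale and 8.72 in Long Red, against a lowest of 4.92, a median of 5.78 and a highest of 7.52 in the other libraries. The log2 difference was 0.64 ± 0.18 (SE; unadjusted p = 0.00831, limma's adjusted p = 0.832). Another gene of the same name (Daplx7pEVm017444) overlapped, with 0.72 and 3.61 FPKM in Long Pale and Long Red and 0.8 to 5.94 in the others. So did a putative member (Daplx7pEVm014955), with 13.2 and 28.7 FPKM in Long Pale and Long Red and 3.77 to 35 in the others. The abundant gene named hypoxia-inducible factor 1-alpha (Daplx7pEVm003281) had 34 and 41.5 FPKM in the Long libraries and 32.6 to 48.1 in the others.

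All 10 genes of haem synthesis and breakdown had a Long difference above 0, with a median of 0.14 on the log2 scale, beside a median of -0.04 over all tested genes. None of the 10 was apart in Long (all genes 2.23% above and 3.93% below) and none had an unadjusted p under 0.05. The count above 0 comes from averaging the 2 Long libraries: 6 of 10 were above 0 with Long Red alone and 7 of 10 with Long Pale alone. Only 3 of the 10 were above 0 in both colours (30%, beside 21.4% of all tested genes). The first enzyme of the pathway, 5-aminolevulinate synthase (Daplx7pEVm006529), had 89.6 FPKM in Long Pale and 42.9 in Long Red, but Black Red reached 97.7 and Black Pale 42.4, and the 4 libraries of Doe and Round lay between 26.9 and 34.1. Of 13 genes of iron storage and transport, 8 were below 0, and these 8 were below 0 in each colour (61.5%, beside 28.9% of all tested genes). The other 5 were above 0, and 3 genes were so in each colour. Among the 5 were a ferritin subunit (Daplx7pEVm016907, difference 0.49) and a ferritin 2 light chain (Daplx7pEVm014207, difference 0.61). The ferritin subunit had 134 FPKM in Long Pale and 99.5 in Long Red, against 57.4 to 115 in the others. A ferritin heavy chain (Daplx7pEVm017571), part of the iron-storing shell, had 216 FPKM in Long Pale, against 227 to 314 in the other Pale libraries. It had 85.6 FPKM in Long Red, against 143 to 164 in the other Red ones. Each Long library was the lowest of its colour, but the colours differed enough that the gene does not meet the definition over all 6.

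Transport genes stood on both sides. A list of 104 genes held both conjugating enzymes and export transporters. Of these, 2 were apart above (1.92%) and 3 below (2.88%), both shares under those of all genes, 2.23% and 3.93%. Those below included the sulfotransferases Daplx7pEVm011934 and Daplx7pEVm012847, which are enzymes and not transporters. An ABC transporter of subfamily B (Daplx7pEVm000883), which pumps compounds across membranes, was above, with 38.8 FPKM in Long Pale and 30.9 in Long Red, against 11.6 to 29.6 in the others. Aquaporin-5 (Daplx7pEVm014585), a membrane water channel, had 6.22 FPKM in Long Pale and 9.09 in Long Red. The 6 others lay between 13.2 and 18.8, with a median of 13.8, and the log2 difference was -0.88 ± 0.16. Both Long values were clear of a tight group of 6. A gene named for big brain (Daplx7pEVm019263), a relative of aquaporins that acts in nerve cell formation in Drosophila, was listed at 0 in Long Pale and had 0.24 FPKM in Long Red, against 1.23 to 2.81 elsewhere. It had the smallest unadjusted p of the genes that were lower, 0.000252, with a log2 difference of -1.35 ± 0.21, at a level where few fragments count.

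A sodium/hydrogen exchanger (Daplx7pEVm002340), which moves sodium into and protons out of a cell, had 2.74 FPKM in Long Pale and 2.09 in Long Red, against 4.23 to 5.68 in the others. Among the 38 genes of ion pumps and carbonic anhydrases, 3 were apart below (7.89%) and 0 above, beside 3.93% and 2.23% over all genes. They were a carbonic anhydrase (Daplx7pEVm012852), which interconverts carbon dioxide and bicarbonate, a beta carbonic anhydrase (Daplx7pEVm014650) and a protein that binds the sodium pump's beta subunit (Daplx7pEVm009236). The first had 2.39 and 2.51 FPKM in Long Pale and Long Red and 3.41 to 6.94 in the others. The second, at 2.01 and 2.26 FPKM, was only just below the lowest of the others, 2.37. The median of the 38 was -0.01, and between 0.03 and 0.09 under the other scalings.

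Digestive enzymes differed gene by gene and not as a group. Of 95 digestive carbohydrases and lipases, 3 were apart above and 3 below (3.16% each), and of 87 digestive proteases 1 above (1.15%) and 3 below (3.45%), near the 2.23% and 3.93% of all genes. The most abundant endoglucanase (Daplx7pEVm009757), an enzyme that cuts cellulose, had 217 FPKM in Long Pale and 202 in Long Red. The 6 others ran from 287 to 949 with a median of 335, the highest being the Round libraries at 949 and 599.7. A carboxyl-ester lipase (Daplx7pEVm010625), which splits dietary fats, went the other way: 2.91 FPKM in Long Pale and 4.12 in Long Red, against 0 to 1.57. Carboxypeptidase B2 (Daplx7pEVm008995), an exopeptidase, had 199 and 156 FPKM in the Long libraries, of which Long Pale was below Doe Red, the lowest other library at 199.61, by less than 1 FPKM. A gene named cathepsin D light chain (Daplx7pEVm012020), an acid protease of lysosomes and gut, had 23.8 FPKM in Long Pale and 15.4 in Long Red, against 29.6 to 58.5 in the others.

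In metabolism, glucose-6-phosphatase (Daplx7pEVm010458), which frees glucose from its phosphate, had 1.85 FPKM in Long Pale and 1.96 in Long Red, against 3.23 to 8.42 elsewhere. The log2 difference was -1.26 ± 0.26. None of the 9 genes of glycolysis, 25 of the tricarboxylic acid cycle or 21 of fatty acid oxidation was apart in Long. At the shares of all genes, 2.23% above and 3.93% below, lists this small hold few such genes or none. The opposite side held genes of lipid modification. A fatty acyl-CoA reductase (Daplx7pEVm007623), which makes fatty alcohols, had 3.13 and 3.33 FPKM in Long Pale and Long Red and 0.85 to 1.78 in the others. A fatty acid elongase (Daplx7pEVm014948) had 3.55 and 3.43 FPKM in the Long libraries and 0 to 1.81 in the others. It averaged 0.717 FPKM in the others, so only its Long values brought it into the tested genes and into the share above given next. Of the 20 genes of elongation and desaturation, 2 were apart above (10%, beside 2.23% of all genes) and 1 below (5%, beside 3.93%), with an acyl-CoA desaturase on each side: Daplx7pEVm025200 with 24.4 and 31.5 FPKM in Long against at most 21.9, and Daplx7pEVm018810 with 0.77 and 0.58 FPKM against at least 0.93.

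The gene that was higher with the smallest unadjusted p was a prostaglandin reductase (Daplx7pEVm012889), an oxidoreductase that acts on oxidised lipids. It had 107.6 FPKM in Long Pale and 38.3 in Long Red, against a lowest of 14.58, a median of 17.7 and a highest of 37.35 in the others. The log2 difference was 1.67 ± 0.29 (unadjusted p = 0.000482, limma's adjusted p = 0.779). Long Pale stood far above, whereas Long Red exceeded Doe Pale by less than 1 FPKM. A cytochrome P450 of the 3A type (Daplx7pEVm006080), from a family that oxidises foreign compounds in vertebrates, had 11.4 and 12.5 FPKM in Long Pale and Long Red, against 2.94 to 8.66. Of 53 cytochrome P450 genes, 2 were apart above (3.77%, beside 2.23% of all genes) and 0 below (all genes 3.93%).

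The 5 named genes with the widest gap above were FAM46A, dopamine beta hydroxylase, a retroviral polyprotein, a fatty acid elongase and a carboxyl-ester lipase. FAM46A, the elongase and the lipase averaged 0, 0.717 and 0.618 FPKM in the other libraries. They passed the filter of 1 FPKM only through their Long values. Dopamine beta hydroxylase (Daplx7pEVm019682), which in vertebrates makes noradrenaline, had 30.4 FPKM in Long Pale and 32.5 in Long Red. The other libraries ran from 0 in Doe Red and Round Pale to 15.2 in Doe Pale. Its log2 difference of 3.32 ± 1.04 was the largest among the 287 genes above, with an unadjusted p of 0.0139. An agrin-like gene (Daplx7pEVm017171), named after the matrix proteoglycan of vertebrate nerve-muscle junctions, had 101 and 59.8 FPKM in Long Pale and Long Red. The others lay between 4.17 and 43.9, with a median of 9.7, and only Round Pale exceeded 14. Only 1 of its 5 isoforms with a mean of at least 1 FPKM was apart in the same direction.

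Protein FAM46A (Daplx7pEVm024606), named after a poly(A) polymerase of vertebrates, had 10.3 FPKM in Long Pale and 1.31 in Long Red and was listed at 0 in the other 6. A rhodopsin-class receptor of the light-sensing opsin group (Daplx7pEVm058936) had 227 and 226 FPKM in Long Pale and Long Red, against 124 to 181 in the others. Its list of 43 opsin and eye pigment genes had 2 apart above (4.65%, beside 2.23% of all genes), 1 below (2.33%, beside 3.93%) and a median of 0.19, with Long Pale at 0.40 over the other Pale libraries and Long Red at 0.05 over the other Red ones. Black Lake was as high on this list. The median deviation from each gene's mean over the 8 libraries was 0.27 in Black Pale and 0.10 in Black Red. It was 0.22 in Long Pale, 0.05 in Long Red, 0.11 in Round Red and -0.33 to -0.12 in the rest. A pair of genes for RNF13, a ubiquitin ligase of the endosome membrane in mammals, was also apart above. Daplx7pEVm012982 had 3.52 and 4.1 FPKM in Long Pale and Long Red, against at most 2.06, and Daplx7pEVm012932 had 8.85 and 6.09, against at most 4.79.

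**Figure D3:**
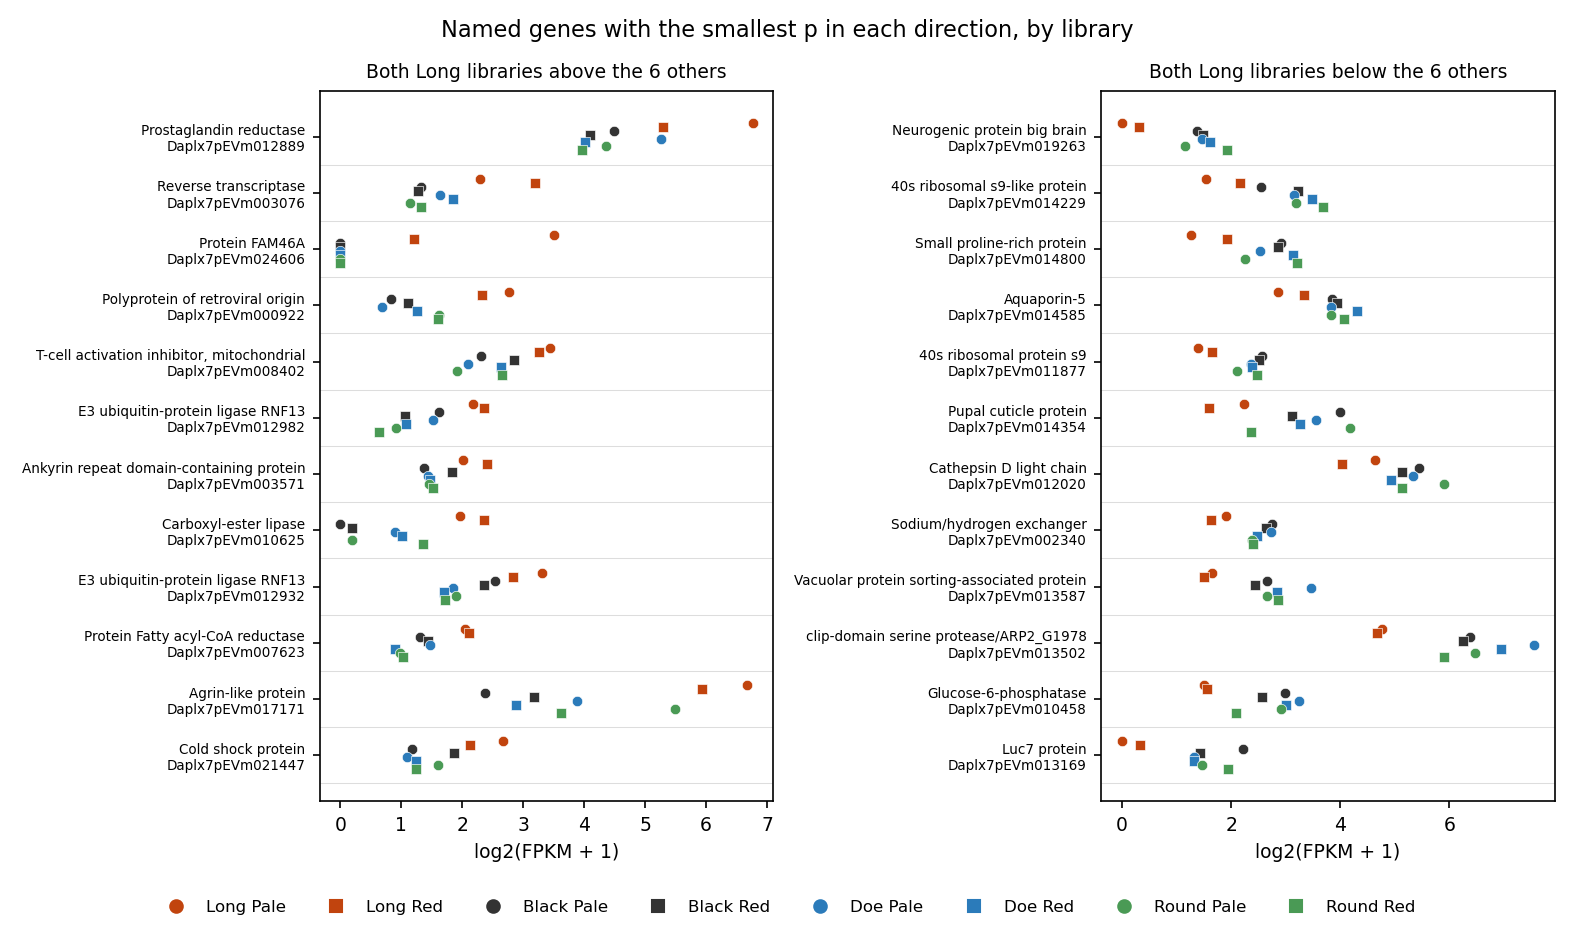
Each row is a gene, with its log2(FPKM + 1) in the 8 libraries; circles are Pale, squares are Red and colours are lakes. The rows are the 12 named genes with the smallest unadjusted p among those with both Long libraries above (left) and below (right) the others, so the separation itself was the criterion. Its width differs, being wide for FAM46A and the clip-domain protease and narrow for prostaglandin reductase.

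Genes of the protease cascades that serve clotting, melanin formation and immunity stood on both sides. The clip-domain serine protease Daplx7pEVm013502 had 26.3 FPKM in Long Pale and 24.4 in Long Red. The others ran from 58.5 to 187, with a median of 85.3, and the log2 difference was -1.86 ± 0.38. At 1.12 on the log2 scale its gap was the widest of the named genes that were lower, and 4 of its 6 isoforms with a mean of at least 1 FPKM lay on the same side. Another, Daplx7pEVm008163, was above with 34 and 54.3 FPKM in Long Pale and Long Red, against 3.76 to 27.2. Of the 104 genes of this list 2 were apart above (1.92%) and 3 below (2.88%), beside 2.23% and 3.93% of all genes, and the median was 0.04. Of 149 lectin and innate immunity genes, 7 were apart below (4.7%, near the 3.93% of all genes) and 0 above (all genes 2.23%); 3 of the 4 named were complement C1q-related genes, with the most abundant (Daplx7pEVm007081) at 5.67 and 4.65 FPKM in Long and 6.21 to 15.3 elsewhere.

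Cuticle genes were low in Long Red and not in Long Pale. Of 243 tested cuticle protein genes 201 had a Long difference below 0, with a median of -0.87, but the median was 0.18 for Long Pale against the other Pale libraries and -1.58 for Long Red against the other Red ones. Levels of this list swung between libraries of other lakes too. Taken as the median deviation from each gene's mean over the 8 libraries, they were 0.26 in Long Pale and -1.18 in Long Red, against 0.84 in Black Pale, 0.37 in Black Red, -0.64 in Doe Pale, 1.07 in Doe Red, 0.19 in Round Pale and -0.57 in Round Red. Both Long libraries were apart below in 8 cuticle genes (3.29%) and above in 1 (0.412%), shares no higher than those of all genes. The widest was Daplx7pEVm014410, with 8.58 FPKM in Long Pale and 9.3 in Long Red, against 16.6 to 136. Collagen and prolyl 4-hydroxylase genes, of the extracellular matrix, had medians of 0.36 in Long Pale and -0.20 in Long Red, and the 42 proteasome genes -0.10 and 0.21. Markers of other tissues whose share of the animal can vary had medians of 0.11 in Long Pale and -0.05 in Long Red for 40 muscle genes, -0.16 and 0.10 for 23 yolk genes, and -0.15 and 0.04 for 33 genes of DNA replication; eye and germ line genes are given with their lists. Their part in the values given here was not tested.

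**Figure D4:**
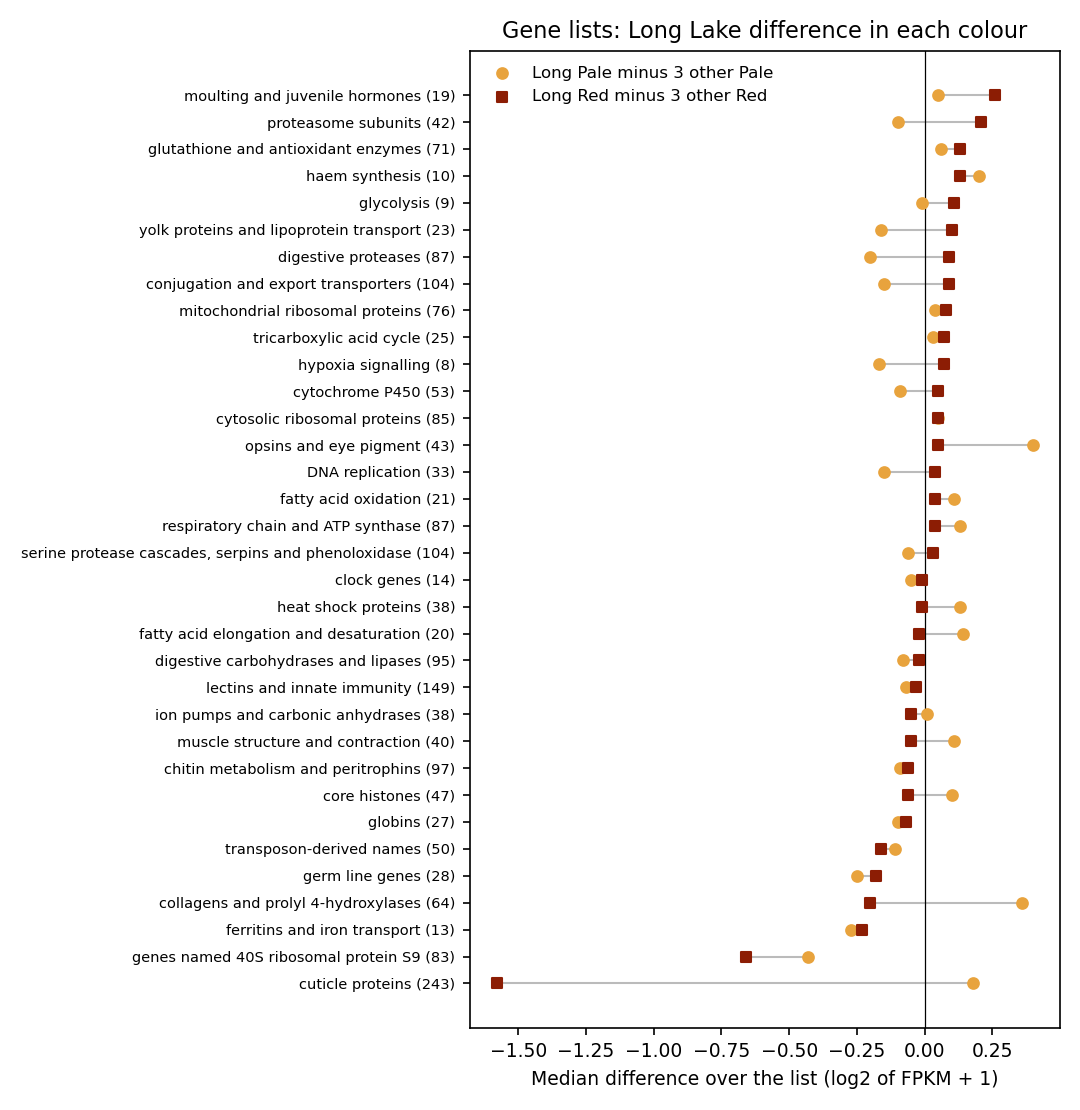
For each gene list (number of tested genes in brackets) the circle is the median difference of Long Pale from the 3 other Pale libraries and the square that of Long Red from the 3 other Red ones, on the log2(FPKM + 1) scale. The list named after S9 lies at -0.43 and -0.66, whereas cuticle proteins lie at 0.18 and -1.58 and most lists lie near 0.

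The list that was low in both colours with the widest shift was that of genes named 40S ribosomal protein S9. It was split from the list of ribosomal proteins after values were seen. The annotation gives this name, or a variant of it, to 274 gene models, of which 83 were tested; S9 itself is a protein of the small ribosomal subunit. Whether these models are copies of S9 was not tested, and their median level was 1.64 FPKM in Long Pale and 1.91 in Long Red, against 2.1 to 3.63 in the others. Of the 83, 76 had a Long difference below 0, with a median of -0.54, and 20 were apart below (24.1%, beside 3.93% of all genes) and 0 above. Some of the 20 averaged under 1 FPKM in Long and passed the filter through the other libraries. Daplx7pEVm010968, for example, averaged 0.125 FPKM in Long and 1.55 in the others. The share below therefore depends in part on the filter. Their summed FPKM was 728 in Long Pale and 706.8 in Long Red, against 764.5 in Round Pale and 943.3 to 1165 in the 5 others. The Long libraries were the lowest, but Round Pale was close to them.

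In 59 of the 83 genes the difference was below 0 in both colours (71.1%, against 28.9% of all tested genes). Long Pale was the lowest of the 8 libraries in 24 genes, Long Red in 27 and Round Pale in 15. Daplx7pEVm014229 had 1.91 FPKM in Long Pale and 3.46 in Long Red, against 4.82 to 11.8 in the others, with a log2 difference of -1.36 ± 0.22. The more abundant Daplx7pEVm015022 had 21.95 FPKM in Long Pale and 21.32 in Long Red, against 28.3 to 45.1, and Daplx7pEVm010732 had 63.5 and 55.7 in Long, with Round Pale between them at 63. The list holds 70 genes whose name is written in lower case, 10 putative or S9-like ones and 3 whose name is written in capitals, and the 3 in capitals did not follow it. Of these, Daplx7pEVm019585 had 165 FPKM in Long Pale and 150 in Long Red, against 124 to 173 in the others, with a difference of 0.15 on the log2 scale. Daplx7pEVm019575 had 47.3 and 57.6 in Long, against 47.7 to 59 (difference 0.02), and Daplx7pEVm025354 had 13.1 and 12.7, against 8.83 to 16.1 (difference 0.08). In Daplx7pEVm019585 and Daplx7pEVm025354 both Long libraries lay among the others. In Daplx7pEVm019575 Long Red did so, while Long Pale at 47.31 FPKM was just under the lowest other library, Doe Pale at 47.67. Genes that share a name and sequence can share reads, so the value of a single copy is less certain than their sum. The count below 0 was 75 under size factors and 72 under quantile normalization.

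The other 85 genes of cytosolic ribosomal proteins did not follow. Since the S9-named genes were split from them after values were seen, this contrast is a description and was not tested. The median of the 85 was 0.04, with 57 above 0, and 1 was apart, below (1.18%, beside 3.93% of all genes). It was a ubiquitin/L40e fusion gene (Daplx7pEVm014128) with 1.3 and 2.35 FPKM in Long Pale and Long Red and 3.11 to 13 in the others. Among 76 genes of mitochondrial ribosomal proteins, 5 were apart above (6.58%, beside 2.23% of all genes) and 7 below (9.21%, beside 3.93%). The 28S protein S2 (Daplx7pEVm016789) had 2.04 and 1.68 FPKM in Long Pale and Long Red and 3.3 to 4.46 in the others. On the other side, the 39S protein L32 (Daplx7pEVm017443) had 4.16 and 5.04 FPKM in the Long libraries and 2.47 to 3.28 in the others. The list's median was 0.02.

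Germ line genes were mostly below 0, with 24 of 28, beside 7189 of all 12865, a median of -0.20 and 17 below 0 in both colours (60.7%, beside 28.9% of all genes). They include Piwi and Tudor-domain genes, which act in silencing transposons in germ cells, and genes named Argonaute-2. Of the 28, 2 were apart below (7.14%, beside 3.93% of all genes): Maelstrom (Daplx7pEVm008491) with 2.42 and 3.59 FPKM in Long Pale and Long Red, against 3.64 to 4.74, and a Tudor gene (Daplx7pEVm006393) with 1.72 and 2.04, against 2.19 to 6.21. Round Pale also stood at -0.13 on this list's median deviation, near Long Pale at -0.22 and Long Red at -0.10. Of 1170 genes with transposon-derived names, 50 were tested. Of these, 4 were apart above (8%, beside 2.23% of all genes) and 0 below (all genes 3.93%), although the list's median was -0.14. A Tigger gene among the 4 (Daplx7pEVm024222) averaged 0.833 FPKM in the others. Only its Long values brought it into the tested genes and into that share above. The reverse transcriptase gene Daplx7pEVm003076 had 3.87 FPKM in Long Pale and 8.11 in Long Red, against 1.21 to 2.58, and another of the 4, a retrovirus-related Pol gene (Daplx7pEVm004932), had 13.5 and 12.4, against 2.52 to 10.4. Outside that list, a gene named polyprotein of retroviral origin (Daplx7pEVm000922) had 5.81 FPKM in Long Pale and 4.01 in Long Red, against 0.61 to 2.08.

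Families were formed from genes with the same deposited name. Of 349 families with at least 4 tested members, the summed FPKM of both Long libraries lay above all 6 others in 5 (1.43%) and below in 13 (3.72%). Black Lake had 12 and 13 such families, Doe Lake 11 and 27, and Round Lake 36 and 3. Taking the most abundant member out left 6 of the 18 on their side: prolyl 4-hydroxylase subunit alpha-1, glutathione S-transferase 1-1 and STAT5B above, and the S9-named genes, small proline-rich proteins and cell division cycle proteins below.

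Prolyl 4-hydroxylase subunit alpha-1, which hydroxylates prolines of collagen, had a summed FPKM of 93.5 in Long Pale and 70.1 in Long Red, against 46.4 to 63.9 in the others. All 5 members had a Long difference above 0, beside 5676 of all 12865 genes, and 3 were apart above (60%, beside 2.23% of all genes). Of the 3, Daplx7pEVm007577 was apart by only 0.005 on the log2 scale, with 2.19 FPKM in Long Pale against 2.18 in Round Pale. The most abundant (Daplx7pEVm006726) had 58.1 and 47 FPKM in Long Pale and Long Red and 26.1 to 45.4 in the others. One member (Daplx7pEVm007743) was high in Long Pale alone, with 23.1 FPKM there, 6.47 in Long Red and 5.52 to 10.8 in the others. This family kept its side under size factors, under quantile normalization and without the most abundant gene of the library.

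Neutral endopeptidase, a membrane protease that cuts signalling peptides, had summed FPKM of 305 in Long Pale and 314 in Long Red, against 178.5 to 260.1. The sum rests on 1 gene, Daplx7pEVm003697, which holds 95.7% of it and had 291 and 305 FPKM in Long Pale and Long Red and 169 to 250.3 in the others. STAT5B-named genes, transcription factors of cytokine signalling in vertebrates, summed to 43.1 and 55.1 in Long Pale and Long Red and to 30.4 to 41 in the others. Of these 5 genes 1 was apart above (20%, beside 2.23% of all genes). That gene (Daplx7pEVm010502) had 9.72 and 20.1 FPKM in the Long libraries and 0.71 to 8.89 elsewhere. Glutathione S-transferase 1-1 genes, of detoxification, summed to 126 and 132.5 in Long Pale and Long Red and to 91 to 119 in the others. On their own, 0 of the 5 members were apart (all genes 2.23% above and 3.93% below).

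Below, endoglucanases summed to 278 in Long Pale and 246 in Long Red, against 376 to 1064. Small proline-rich proteins, named after structural proteins of vertebrate epidermis, summed to 43.3 in Long Pale and 39.4 in Long Red, against 47.6 to 95.6. Of their 10 members 9 were below 0, beside 7189 of all 12865 genes, and 4 were apart below (40%, beside 3.93% of all genes). Daplx7pEVm014800 had 1.39 and 2.8 FPKM in Long Pale and Long Red and 3.78 to 8.21 in the others. Cathepsin L cysteine peptidases, proteases of gut and lysosome, summed to 1604 in Long Pale and 1113 in Long Red, against 1688 to 2461. Their sum was close to the lowest other library in Long Pale and well under it in Long Red.

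Cell division cycle proteins, a name that covers several functions, summed to 25.5 and 32 in Long Pale and Long Red and to 34.1 to 51.5 in the others. Of their 7 members 6 were below 0, beside 7189 of all 12865 genes. Proteins named after glioma pathogenesis-related protein, secreted proteins of the CAP group, summed to 154 and 120 in Long Pale and Long Red and to 171 to 425 in the others. THAP domain proteins, which bind DNA through a zinc-dependent fold, summed to 60.9 and 45.1 in Long Pale and Long Red and to 68.3 to 89.3 in the others. The family of 70 genes with the lower-case S9 name summed to 403 and 397 in Long Pale and Long Red, against 420 in Round Pale and 604 to 744 in the 5 others. Its gap to Round Pale, 0.06 on the log2 scale, closed under size factors, under quantile normalization and without the most abundant gene of the library. Cathepsin L and cell division cycle proteins likewise overlapped the others under each of these scalings. Endoglucanase, the glioma pathogenesis-related family and neutral endopeptidase kept their side under all of them. Small proline-rich proteins overlapped the others under quantile normalization and without the most abundant gene, THAP domain proteins without that gene alone, STAT5B under size factors and quantile normalization, and glutathione S-transferase 1-1 under size factors.

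**Figure D5:**
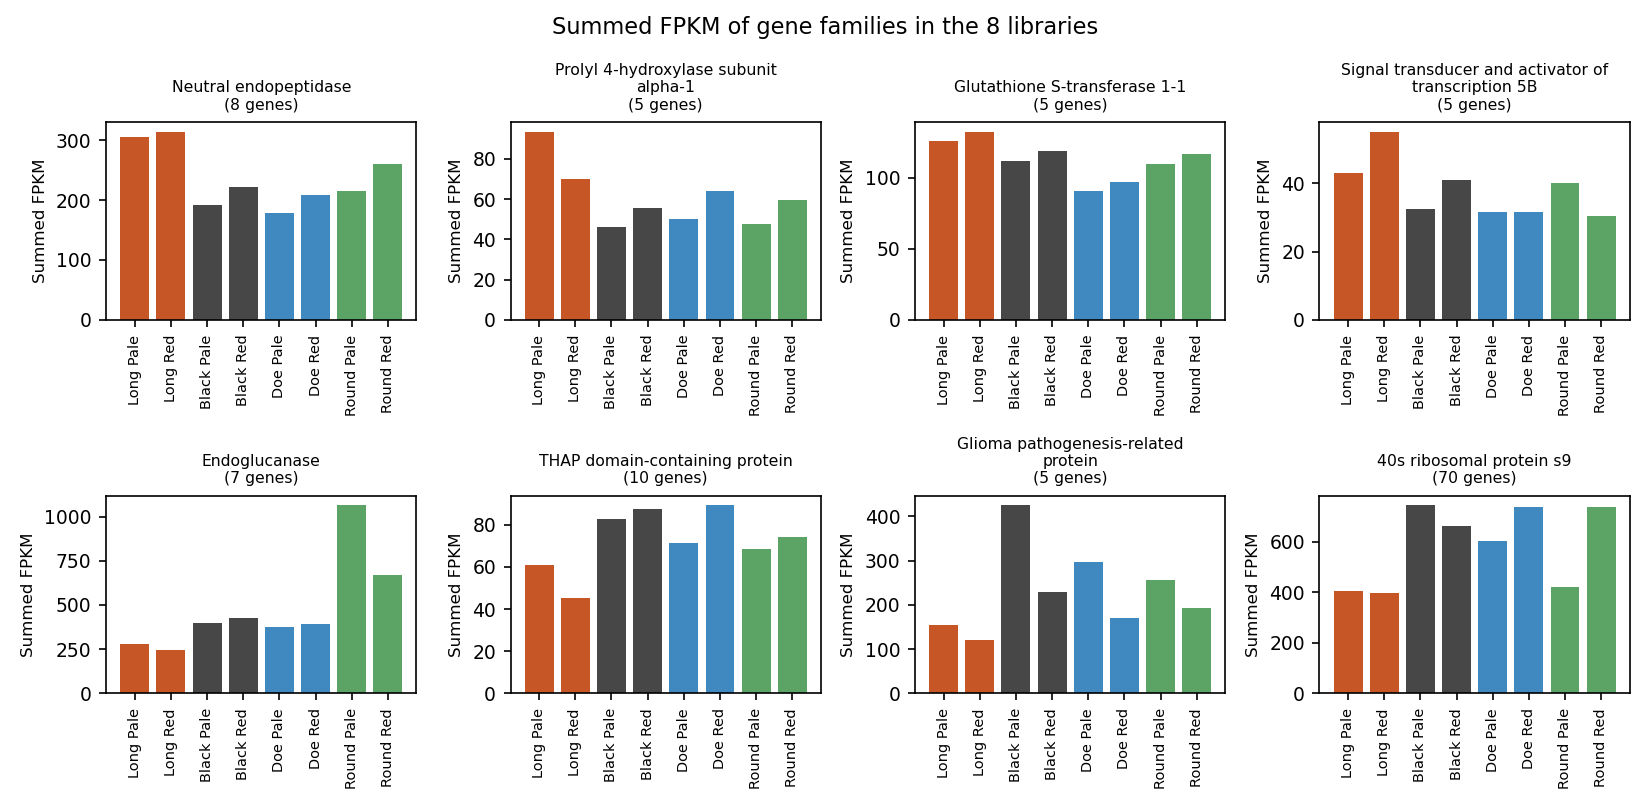
Bars give the summed FPKM of a family in each library, Long Pale and Long Red at the left of each panel; colours are lakes. The upper row holds families with both Long bars above the other 6 and the lower row families with both below; Round Pale nearly meets the Long bars for the S9-named family.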

How the data were processed

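The authors deposited FPKM values with 2 decimals for 33069 genes and 109737 isoforms and, per lake, a log2 ratio that was not used. Reads were trimmed with Trimmomatic, per the submitters' processing notes. How they were aligned and quantified, and on which build, is not given in the sources used here. No column was left unassigned. Names are those in the deposited tables; 0 identifiers matched the RefSeq gene table, so neither coordinates nor sequences are printed.

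Genes averaging 1 FPKM or more were tested on log2(FPKM + 1), which understates the difference of low genes, with limma 3.58.1 in R 4.3.3 (mean-variance trend, Long and colour as terms, two-sided, Benjamini-Hochberg adjustment, threshold 0.05, 5 residual degrees of freedom). Errors are limma standard errors. The filter used the mean of all 8 libraries, so a gene low in the other lakes could pass it through its Long values. Likewise, a gene low in Long could pass it through the other lakes. Lists and families were summarised with pandas 2.3.3 in python 3.11.15. The procedure was tested on simulated data. Labels do not say that libraries came from separate cultures, and p-values measure the spread between these libraries, 1 lake against 3. Pairs of lake mates do not repeat a group, so a correlation within lakes was an alternative.

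The members and the 34 lists (name patterns, trimmed of names of other function) were chosen with earlier results of these data known, and the S9-named genes were split from the ribosomal list after values were seen. Named genes were, per direction, the 12 with the smallest p among separated genes, the 5 with the widest gap, up to 2 uncharacterized ones, up to 4 separated members of each list and up to 3 members of the 8 families with the widest gap. Other members of the haem, hypoxia, ferritin and S9 lists were chosen after their values were seen. Alternatives were other pseudocounts, filters, scalings and designs, and leaving out each library or lake.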

Additional observations from a re-analysis of the deposited data

Results flagged for a closer look

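In 5 of the 123 named genes, 1 of the 6 libraries of the other lakes lay far from the remaining 5, by Dixon's criterion for 6 values; chance flags about 1 in 20 such groups. For the genes that were lower in Long, the distant library was on the high side in 3 cases, all in Black Pale: the glioma pathogenesis-related gene Daplx7pEVm010105 with 288.92 FPKM, against 89.29 in Long Pale, 52.01 in Long Red and at most 147.64 in the rest; the clip-domain protease Daplx7pEVm008213 with 152.57 FPKM, against 51.14, 22.84 and at most 74; and the chitinase Daplx7pEVm002068 with 11.5 FPKM, against 2.96, 2.77 and at most 5.73. In the sodium pump beta-subunit interacting gene Daplx7pEVm009236, Black Red was low at 3.09 FPKM, close to 3.01 in Long Pale and 2.92 in Long Red. In the ankyrin repeat gene Daplx7pEVm003571, which was above in Long with 3.05 and 4.3 FPKM, Black Red was the highest of the others at 2.57. The groups of 2 Long libraries are too small for this criterion.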

How the results depend on the processing

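No paired analysis was possible because no lake is in both groups and the number 1 is given to every library. Fits with lake as a fixed block and with a correlation within lakes (0.135) called 0 genes. No alternative called a gene except the fit without a filter, with 8 higher. Separated genes numbered 287 above and 505 below. Above, they numbered 622 without a filter, 110 at a mean of at least 5 FPKM, 454 with size factors, 538 with quantile normalization, and 525, 442 and 884 without Black, Doe and Round Lake. Below, they numbered 187 at a mean of at least 5 FPKM, 298 with quantile normalization, and 924, 1081 and 942 without Black, Doe and Round Lake. Leaving out each library gave 334 to 1799 above and 582 to 2542 below, the highest counts where 1 Long library remained. Families (5 above, 13 below) numbered 11 and 33 without a filter, 2 and 6 at a mean of at least 5 FPKM, 10 and 33 without Black Lake, 18 and 24 without Round Lake, 25 and 45 at 2 members or more, and 2 and 6 at 8 members or more. Above they numbered 10 with size factors and 12 without the most abundant gene, and below 22 without Doe Lake. Leaving out each library gave 5 to 42 above and 13 to 87 below. Fewer libraries to exceed raise these counts by construction. Lists with a median above 0 numbered 17 of 34, 26 with quantile normalization and 10 without Doe Lake, and 14 to 20 when each library was left out. Among the named genes, the prolyl 4-hydroxylase gene Daplx7pEVm007743 had 0.61, 1.5 without Long Red, and -0.28 without Long Pale, which is the same as Red libraries alone. Of 103 named genes that were apart, 94 stayed so under size factors, 86 under quantile normalization and 98 without the most abundant gene. The depth behind each value is unknown, so genes of 1 or 2 FPKM are the least certain.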

Other observations

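Over all 33069 genes, without a filter on low values, 85 genes were above 0 in both Long libraries and listed at 0 in the 6 others, and 43 were listed at 0 in both Long libraries and above 0 in the 6 others. The same counts were 143 and 34 for Black Lake, 60 and 113 for Doe Lake and 66 and 45 for Round Lake, so Long Lake lies within the range of the other lakes. Most of these values are near the lowest a library can show: both libraries reached 0.5 FPKM in 14 of the 85 genes. A gene with a lysin motif, Daplx7pEVm061091, a fold that binds chitin-like sugars, had 2.84 FPKM in Long Pale and 3.39 in Long Red. It and the TOM7 gene (Daplx7pEVm027587) were among the 8 genes called by limma without a filter (adjusted p 0.0124 and 0.0263). Both miss the filter of the main test. With the 6 other libraries all at 0, these p-values do not measure a spread between lakes, and no conclusion is drawn from them. A carboxyl-ester lipase, Daplx7pEVm010638, had 3.25 and 0.7 FPKM, beside the other lipase of that name that was apart above. A gene for TOM7, a part of the mitochondrial import pore, Daplx7pEVm027587, had 0.7 and 0.77 FPKM. The uncharacterized genes Daplx7pEVm063507 and Daplx7pEVm063508 had identical values in every library and count as 1 observation. In the opposite direction, the gene of a mitochondrial ribosomal protein, 28S S26 (Daplx7pEVm017641), was listed at 0 in both Long libraries and had 0.43 to 2.26 FPKM in the others. A file without counts cannot separate a gene that is absent from one below detection.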
